A study of Mus musculus with 2 samples.

Results

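The retinoid receptors are the 6 genes Rara, Rarb, Rarg, Rxra, Rxrb and Rxrg, taken here as every gene and transcript entry whose identifier maps to these symbols in the GENCODE mouse annotation. They are 6 of 43346 genes and 34 of 103639 transcripts in the deposited tables. The samples were total RNA libraries from the embryonic facial prominence of B6NCrl mice at embryonic day 11.5, the tissue swellings around the primitive mouth from which the face forms. The labels give 1 group of 2 libraries and name no treatment or other genotype. For library 1, 109 embryos of mixed sex were pooled, and for library 2 a separate 88. With 1 group, levels were described and no test between conditions was possible. The pool, not the embryo, is the replicate, so an SD over 2 libraries says nothing of the spread between embryos.

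Retinoic acid receptors (RARs) are nuclear receptors that bind all-trans retinoic acid, and they act on DNA as heterodimers with retinoid X receptors (RXRs), mostly at direct repeats of a short hexamer. Without ligand the pair recruits corepressors, and with ligand it exchanges them for coactivators. Each Rar gene has an upstream and a downstream promoter whose transcripts encode proteins with different amino-terminal regions, and Rarb and the downstream promoters are known as retinoic acid targets. In the developing face, both too little and too much retinoic acid are known to cause malformations.

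Expected counts summed to 30849058 in library 1 and 31600302 in library 2, and the 6 receptor genes held 8438 and 7569 of them. A gene of 1 kb with no read could still lie at up to 0.146 TPM (transcript level per length and per library, scaled to a fixed total) in library 1 and 0.144 TPM in library 2, the level that 3 counts would give. Of the markers of facial mesenchyme, 10 of 10 genes were detected, with a summed level of 997 TPM in library 1 and 954 TPM in library 2. Their detection cannot test the tissue label, because markers of other tissues passed as well. Markers of surface epithelium (6 of 6), neurons (6 of 6), forebrain and eye (7 of 7), skeletal muscle (6 of 6), erythroid cells (5 of 5), endothelium (5 of 5) and pigment cells and glia (4 of 5) were detected too, so the receptor levels are averages over a mixed dissection. In such bulk samples fewer cells that express a gene and less RNA per cell cannot be told apart.

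All 6 receptor genes were detected, meaning at least 1 TPM in both libraries, where 58.5% of protein-coding genes were. Rarg was highest and Rxrg lowest, and each of the 3 Rar genes lay above each of the 3 Rxr genes in both libraries. The order was Rarg, Rarb, Rara, Rxrb, Rxra, Rxrg in library 1 and again in library 2. No pair of neighbours in this order overlapped in their 2 values. The lowest of the 6 stood at percentile 53.1 of protein-coding genes by level and the highest at percentile 86.6.

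Rarg, the RAR known from skeletal precursors and skin (ENSMUSG00000001288.10; mm10 chromosome 15, 102234938 to 102257517, minus strand), measured 53.1 TPM in library 1 and 51.2 TPM in library 2, a mean of 52.1 ± 1.30 (SD, n = 2). Its values lay closest together among the RARs. Rarb, itself a classical retinoic acid target gene (ENSMUSG00000017491.8; chromosome 14, 16430839 to 16819156, minus strand), measured 41.1 and 35.7 TPM, a mean of 38.4 ± 3.83 (SD, n = 2). Rara, generally the most broadly expressed RAR (ENSMUSG00000037992.12; chromosome 11, 98927818 to 98974942, plus strand), measured 30.2 and 24.6 TPM, a mean of 27.4 ± 4.02 (SD, n = 2). Both were higher in library 1, but the lower Rarb value still exceeded the higher Rara value.

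Rxrb, a widely expressed RXR (ENSMUSG00000039656.12; chromosome 17, 34031812 to 34038399, plus strand), led its subfamily at 11.2 and 11.0 TPM, a mean of 11.1 ± 0.134 (SD, n = 2). The other two RXRs were lower in both libraries. Rxra, whose loss is known to be lethal in mouse embryos (ENSMUSG00000015846.10; chromosome 2, 27676440 to 27762957, plus strand), measured 7.32 and 5.73 TPM, a mean of 6.53 ± 1.12 (SD, n = 2). Rxrg, known for its restricted expression in muscle and parts of the nervous system (ENSMUSG00000015843.6; chromosome 1, 167598384 to 167639623, plus strand), measured 5.25 and 4.28 TPM, a mean of 4.77 ± 0.686 (SD, n = 2). The step from Rxra to Rxrg was the narrowest in TPM, 1.76 between means beside an SD of 1.12 TPM for Rxra.

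**Figure D1:**
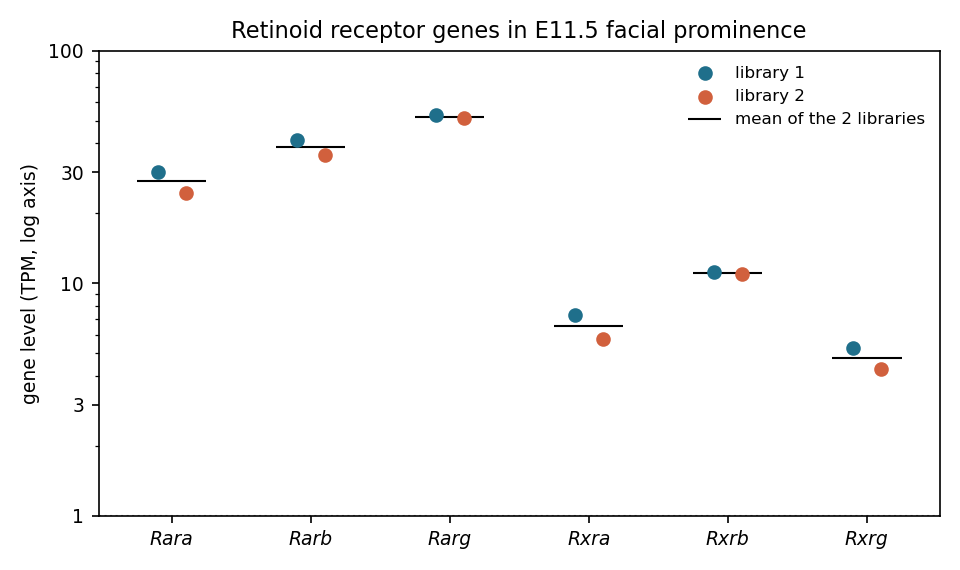
Level of the 6 receptor genes in TPM on a log axis, with 1 point per library and a line for the mean of both. The Rar genes lie between 24.6 and 53.1 TPM and the Rxr genes between 4.28 and 11.2 TPM.

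TPM is scaled by transcript length, so paralogs can be compared within a library. The step from Rarb to Rarg was 1.29-fold in library 1 and 1.43-fold in library 2, and that from Rara to Rarb was 1.36-fold and 1.45-fold. Among the RXRs, Rxrb exceeded Rxra by 1.53-fold in library 1 and 1.92-fold in library 2, and Rxra exceeded Rxrg by 1.39-fold and 1.34-fold. By fold, the widest step between neighbours fell between the subfamilies, where Rara exceeded Rxrb by 2.70-fold and 2.23-fold. From end to end, Rarg exceeded Rxrg by 11.0 ± 1.32-fold (SD, n = 2).

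Summed over each subfamily, the Rar genes reached 124 TPM in library 1 and 111 TPM in library 2, and the Rxr genes 23.8 and 21.0 TPM. The sum of the Rar genes was 5.24 times that of the Rxr genes in library 1 and 5.31 times in library 2, a mean of 5.27 ± 0.0496 (SD, n = 2). Relative to its mean, this ratio varied less between the pools than either sum did, and it concerns RNA, not receptor protein. Rarg made up 42.6% of the Rar sum in library 1 and 45.9% in library 2, Rarb 33.0% and 32.0%, and Rara 24.3% and 22.03%. Of the Rxr sum, Rxrb made up 47.1% and 52.3%, Rxra 30.8% and 27.3%, and Rxrg 22.1% and 20.4%.

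The transcripts of the 6 genes were compared by the isoform percentage, which gives each transcript's part of the TPM of its gene. Of 34 transcripts, 14 reached 10% in at least 1 library, 11 were listed at 0 in both and 10 are annotated as non-coding. In Rara and Rarg the promoters matter for the protein because the first coding exons differ between them. In Rxrg the downstream form has no coding bases of its own, and in Rxrb the promoters were not separated when starts within 500 bases were joined. The first 60 coding bases of the transcripts on which the results turn are printed with the start codon in capitals. They were read from GENCODE M21 on GRCm38 (the assembly also called mm10).
Rara-204, upstream start codon: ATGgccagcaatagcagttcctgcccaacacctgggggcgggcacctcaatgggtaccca
Rara-202, downstream start codon: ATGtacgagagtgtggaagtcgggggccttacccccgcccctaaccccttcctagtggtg
Rarb-201: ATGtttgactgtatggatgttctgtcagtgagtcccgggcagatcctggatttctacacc
Rarg-201, upstream start codon: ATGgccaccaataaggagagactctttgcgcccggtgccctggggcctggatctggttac
Rarg-202, downstream start codon: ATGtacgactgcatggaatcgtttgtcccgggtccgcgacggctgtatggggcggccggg
Rxra-201: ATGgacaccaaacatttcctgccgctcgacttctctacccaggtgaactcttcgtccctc
Rxrb-201, upstream start codon: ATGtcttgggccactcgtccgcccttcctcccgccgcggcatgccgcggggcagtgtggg
Rxrb-202, downstream start codon: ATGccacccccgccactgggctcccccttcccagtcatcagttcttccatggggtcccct
Rxrg-201, upstream start codon: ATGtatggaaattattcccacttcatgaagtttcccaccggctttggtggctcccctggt
Rxrg-202, downstream start codon: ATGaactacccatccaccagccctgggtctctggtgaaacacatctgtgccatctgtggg

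In Rara, the upstream start codon at position 98950618 carried most of the transcript level. Its 4 transcripts, which share a reading frame of 462 codons, together took 81.5% of Rara TPM in library 1 and 85.6% in library 2. Rara-202, which starts at the downstream promoter and encodes 459 codons from position 98960965, took 18.5% and 14.4%. In TPM the upstream transcripts reached 24.7 and 21.0 and Rara-202 5.59 and 3.53, so the upstream form was 4.41 times the downstream form in library 1 and 5.95 times in library 2. Both forms end in the same 1208 coding bases and differ in 178 and 169 coding bases before them.

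The upstream form of Rara itself came from 3 separated groups of starts. Rara-203, with the most distal start at 98927818, took 13.4% in library 1 and 23.5% in library 2. Rara-204 and Rara-201, whose starts lie within 98937698 to 98937718, took 40.9% and 34.2% together, nearly all of it Rara-204. Rara-207, from 98939711, took 27.2% and 27.9%. All of them share the start codon and the number of codons, and their estimates were imprecise. Rara-203 held 64.4 to 315 counts in library 1 and 154 to 396 in library 2, within 2 posterior SDs, the deposited error of dividing reads among transcripts, and these ranges overlapped.

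In Rarg, the upstream and downstream promoters contributed nearly equal levels. Rarg-201, with 458 codons from the upstream start codon at 102252602, took 53.0% of Rarg TPM in library 1 and 49.7% in library 2. Rarg-202, with 447 codons from 102246210, took 41.4% and 45.1%. Rarg-201 measured 28.1 and 25.4 TPM and Rarg-202 21.9 and 23.1 TPM, a ratio of 1.28 in library 1 and 1.10 in library 2. The values of Rarg-201 lay above those of Rarg-202 in both libraries, but their shares ran in opposite directions between the pools.

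The forms of Rarg share 1191 coding bases at the end, and only 183 and 150 coding bases set them apart. The exonic bases found in 1 form alone numbered 676 for Rarg-201 and 441 for Rarg-202, and the division of reads rests on these. Within 2 posterior SDs, Rarg-201 held 1490 to 1799 counts in library 1 and 1376 to 1654 in library 2, and Rarg-202 held 1026 to 1330 and 1129 to 1395. As counts, the ranges of the 2 forms did not overlap in library 1, and in library 2 they met between 1376 and 1395. Counts are not scaled by length, and Rarg-201 is the longer transcript, with 2953 nt against 2718 nt. The lead of Rarg-201 in TPM is therefore less certain than these ranges imply, and in library 2 it was not resolved. Rarg-204, a partial transcript of 423 nt, held 13 and 15 counts and 3.69% and 4.33% of the gene's TPM.

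The promoters of Rarg differ in base composition. The 250 bases before each RefSeq start (GRCm38.p6, minus strand) are printed for Rarg because, of the genes with separate groups of starts, its 2 promoter forms came closest in level. Capitals are not used, since neither holds a repeat of the kinds searched for.
Rarg-201, chr15:102257523-102257772: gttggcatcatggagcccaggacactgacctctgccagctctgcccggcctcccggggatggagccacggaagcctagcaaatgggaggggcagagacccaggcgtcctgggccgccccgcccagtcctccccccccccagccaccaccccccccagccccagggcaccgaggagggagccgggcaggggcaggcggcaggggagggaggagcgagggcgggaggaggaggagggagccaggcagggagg
Rarg-202, chr15:102246501-102246750: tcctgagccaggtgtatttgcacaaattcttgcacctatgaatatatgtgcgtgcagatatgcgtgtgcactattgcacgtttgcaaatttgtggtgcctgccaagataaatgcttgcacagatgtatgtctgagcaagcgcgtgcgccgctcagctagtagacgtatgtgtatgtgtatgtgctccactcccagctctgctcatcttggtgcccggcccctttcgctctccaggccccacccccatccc

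With the 50 bases after the start included, the upstream Rarg window had a GC content of 70.0%, at percentile 90.4 of the 32851 RefSeq promoter windows, and the downstream window 51.7%, at percentile 45.4. The 2 windows held 12 and 10 CpG dinucleotides, where the median window held 7. The GC-rich and the average promoter thus stood before transcripts of similar level.

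Rarb was quantified as a single transcript, Rarb-201, of 448 codons from position 16575014, so its share was 100% in both libraries by construction. Annotation M21 lists 7 transcripts of the gene, including coding ones that start near the far end of the gene at 16819156, and the tables built on annotation M4 give none of these a value. Which Rarb promoter was used can therefore not be read from these data. In the M21 models, Rarb also shares 1793 exonic bases with Top2b, a DNA topoisomerase gene on the opposite strand (112 and 124 TPM). The sources used here do not say whether the libraries or the counting kept strand, so the Rarb level is uncertain by what Top2b reads could add, although the deposited posterior SD of the gene count was 0 for both genes.

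The start of Rarb-201 is the known retinoic acid-responsive promoter, and its repeat was found by letters. A direct repeat with a spacer of 5 bases was searched as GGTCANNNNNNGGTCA, GGTCANNNNNNGTTCA, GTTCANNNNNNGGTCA and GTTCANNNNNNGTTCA, on both strands with overlaps allowed, in RefSeq windows from 250 bases before to 50 after a start. Of the 13 windows of the receptor genes 1 held it, that of Rarb, and 0.247% of all 32851 windows did. The stretch is printed 5′ to 3′ with both hexamers and their spacer in capitals.
Rarb, chr14:16575506-16575535, minus strand, GRCm38.p6: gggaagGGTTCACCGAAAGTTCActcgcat

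The letters matched by the search, which leave out the first base of the first hexamer, span 16575513 to 16575528. They lie before the RefSeq start at 16575476 and 15 to 30 bases after the GENCODE start of Rarb-201 at 16575543, so the models differ on whether they are transcribed. Repeats with spacers of 2 bases (GGTCANNNGGTCA and the forms with GTTCA at either place) or 1 base (GGTCANNGGTCA and the same forms) were in 0 of the 13 receptor windows, and 0.399% and 0.402% of all windows held them. A missing match says only that these letters are not in these windows.

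Rxra was carried by Rxra-201, of 467 codons, at 100% in both libraries, with 721 and 575 counts. Rxra-202 and Rxra-203, with a later start codon at 27737355 and 439 codons, were listed at 0. The deposited posterior mean put 93.5% and 92.8% of the gene on Rxra-201 and the rest on the other models, so the 0 is an estimate and not an absence. The window before Rxra-201 had the highest GC content of the 13 receptor windows, 83.0% with 55 CpG dinucleotides, at percentile 99.7 of all windows by GC, while that of Rxra-202 had 54.3% and 1.

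In Rxrb, the leading transcript by estimated share was not the same in the 2 libraries. Rxrb-201, of 524 codons from 34031998, took 53.7% of Rxrb TPM in library 1 and 34.7% in library 2, and Rxrb-202, of 410 codons from 34032931, took 41.3% and 55.0%. In TPM these were 6.0 and 3.81 for Rxrb-201 and 4.62 and 6.05 for Rxrb-202, a ratio of 1.30 in library 1 and 0.630 in library 2. The gene total, 11.2 and 11.0 TPM, hardly moved while the estimated order of the forms reversed.

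Rxrb-201 held 310.6 counts in library 1 and 200.6 in library 2, with ranges of 252 to 370 and 152 to 249 within 2 posterior SDs that did not overlap. Rxrb-202 held 207 and 276, and its ranges of 146 to 268 and 225 to 326 did overlap. In library 1 the ranges of the 2 forms also overlapped, between 252 and 268 counts, so which form led there was not resolved. In library 2 they overlapped between 225 and 249 counts, so as counts alone the lead was not resolved there either. Counts are not scaled by length, and Rxrb-201 is the longer transcript, with 2623 nt against 2283 nt. The lead of Rxrb-202 in library 2 is therefore larger in TPM than in counts. The starts of both forms, 34031812 and 34032401, fall in 1 group by steps of at most 500 bases. They are joined only through a transcript between them that was listed at 0 counts in both libraries. The group took 95.02% and 91.5% of the gene, so promoters were not separated at this distance. Counted from the end, the coding sequences of the forms are identical for 344 bases. That count stops at the first difference, so it is not the whole shared part. Of 2629 exonic bases with the upstream start codon, 388 occur with it alone. With the downstream one, 261 of 2502 do. Counts scaled by TMM, edgeR's adjustment for library size and composition, gave a ratio of library 2 over library 1 of 0.647 (exact 95% interval 0.539 to 0.775) for Rxrb-201 and 1.34 (1.11 to 1.61) for Rxrb-202. These intervals cover counting error only and not the error of dividing reads.

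In Rxrg, the upstream start codon led. Rxrg-201, Rxrg-203 and Rxrg-204, which share 463 codons from 167598752, together took 70.7% of Rxrg TPM in library 1 and 73.0% in library 2, and Rxrg-202, of 340 codons from 167625000, took 29.3% and 27.0%. In TPM the upstream transcripts summed to 3.71 and 3.12 and Rxrg-202 reached 1.54 and 1.15. The ratio of upstream to downstream was 2.41 in library 1 and 2.71 in library 2, a mean of 2.56 ± 0.215 (SD, n = 2). The upstream form was the higher one in both libraries, and its values did not overlap those of Rxrg-202. Within 2 posterior SDs, however, Rxrg-202 held anything from 10.9 to 85.7 counts in library 1 and from 7.19 to 66.5 in library 2. The SD over 2 libraries does not measure this error of dividing reads, so the size of the lead is uncertain.

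Within the upstream form of Rxrg the single transcripts could not be resolved at this depth. Rxrg-201 took 43.3% and 31.4%, Rxrg-203 27.4% and 13.3%, and Rxrg-204 0% and 28.3%. Rxrg-204 was listed at 0 counts in library 1, with a posterior SD of 14.2 counts, and at 40.6 counts in library 2, with a posterior SD of 20.3. The ranges within 2 posterior SDs overlapped between the libraries for all 4 Rxrg transcripts. All coding bases of Rxrg-202 lie within the 1020 that it shares with the upstream form, which adds 369 before them.

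**Figure D2:**
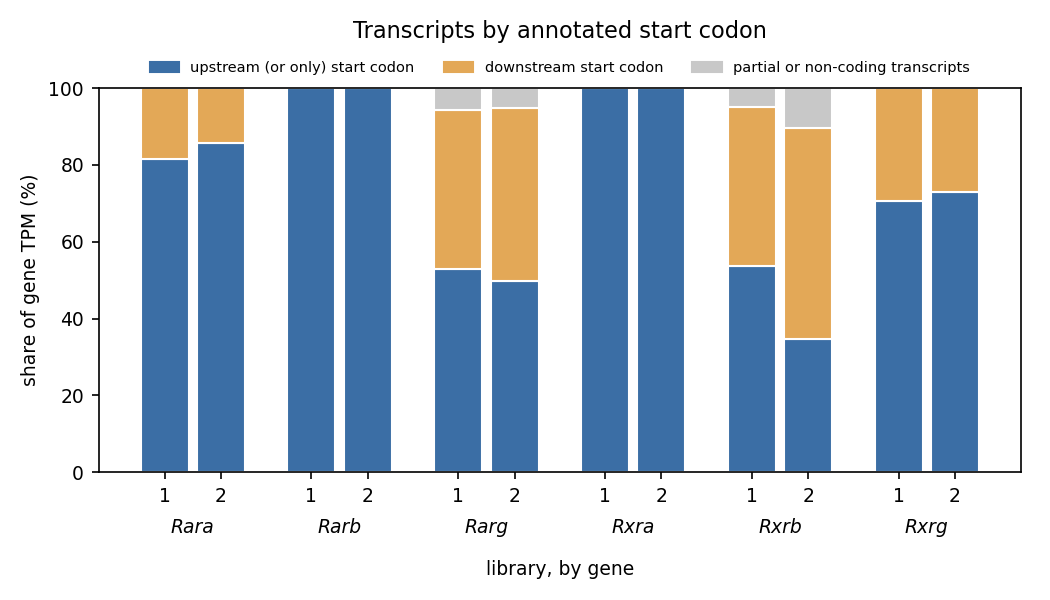
Share of each gene's TPM, in percent, carried by transcripts of the upstream or only start codon, the downstream start codon, and partial or non-coding transcripts, for library 1 and library 2. Rarg was divided almost evenly in both libraries, the larger share of Rxrb lay with the upstream start codon in library 1 and with the downstream one in library 2, and Rara and Rxrg leaned to the upstream start codon at 70.7% to 85.6%.

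**Figure D3:**
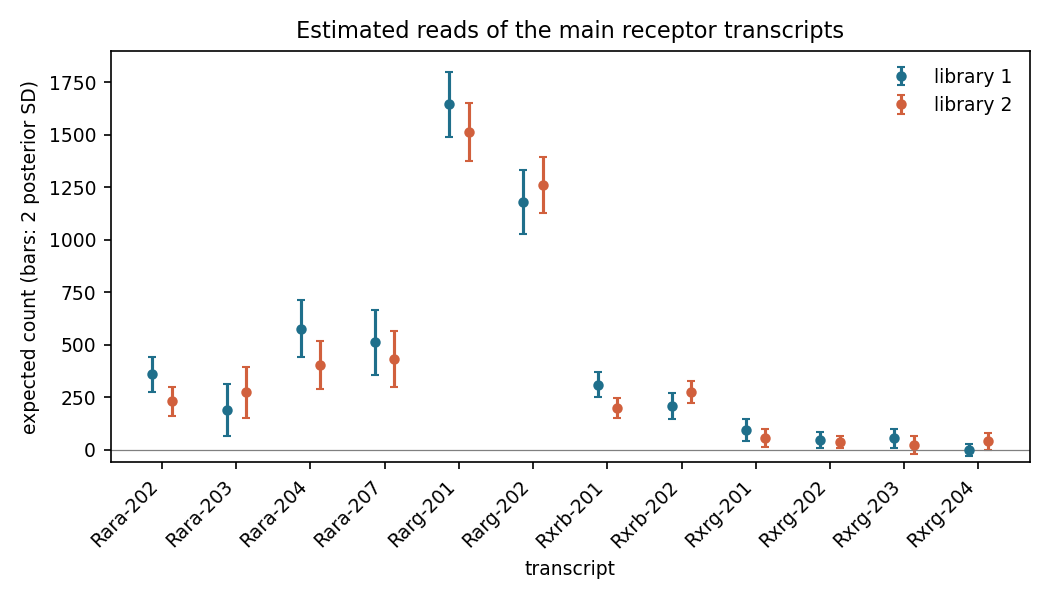
Expected counts of the transcripts of Rara, Rarg, Rxrb and Rxrg in each library, with bars of 2 posterior SDs. Of the plotted pairs discussed here, Rxrb-201 did not overlap between the libraries, and the bars of the Rxrg transcripts did.

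By position of start, 3 of the 6 genes (Rara, Rarg and Rxrg) had at least 2 groups of starts that each took 10% or more in both libraries. Of the 6031 protein-coding genes that have 2 or more transcripts and average at least 10 TPM, 27.9% did. That set leaves out Rarb, with 1 transcript, and Rxra and Rxrg, by their level. The leading transcript was the same in both libraries for 5 of the 6 genes, Rxrb being the exception, where 89.9% of 9681 genes that have 2 or more transcripts and average at least 1 TPM had the same one. For Rarb this is fixed by its single transcript. For Rxrb the lead in library 1 was not resolved, and in library 2 the count ranges of the forms overlapped too.

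Between the pools, all 6 receptor genes had fewer scaled counts in library 2 than in library 1, where 49.2% of the 14790 genes with at least 50 counts did. Rxrg was 1.26-fold higher in library 1 (exact 95% interval 1.02 to 1.57), from 197 and 156 counts. Rxra was 1.252-fold higher (1.12 to 1.40), from 721 and 575 counts. For these 2 of 6, one library exceeded the other by at least 25%, the size used here to count a difference. Of the 14790 genes 17.9% passed it in either direction and 10.8% with library 1 higher, as did 5.90% of the 8647 genes with counts in the range of the receptors.

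Rara, from 1670 and 1359 counts, was 1.23-fold higher in library 1 (1.14 to 1.32), just short of that size. Rarb, from 2474 and 2187 counts, was 1.13-fold higher (1.07 to 1.197). The interval of the ratio excluded 1 for these 4 genes, and it did so with library 1 higher for 21.0% of those 8647 genes. Rxrb was 1.07-fold higher (0.940 to 1.21) and Rarg 1.02-fold higher (0.965 to 1.07), and both intervals held 1.

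The median log2 ratio of library 2 over library 1 was -0.24 for the 6 receptors and -0.01 for the 8647 genes of similar count, whose central 90% ran from -0.34 to 0.30. All 6 receptors lay inside that band. With TMM, DESeq2, total-count and spike-in scaling alike, all 6 were higher in library 1. Differences between the embryos of the 2 pools and between the library preparations cannot be told apart.

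**Figure D4:**
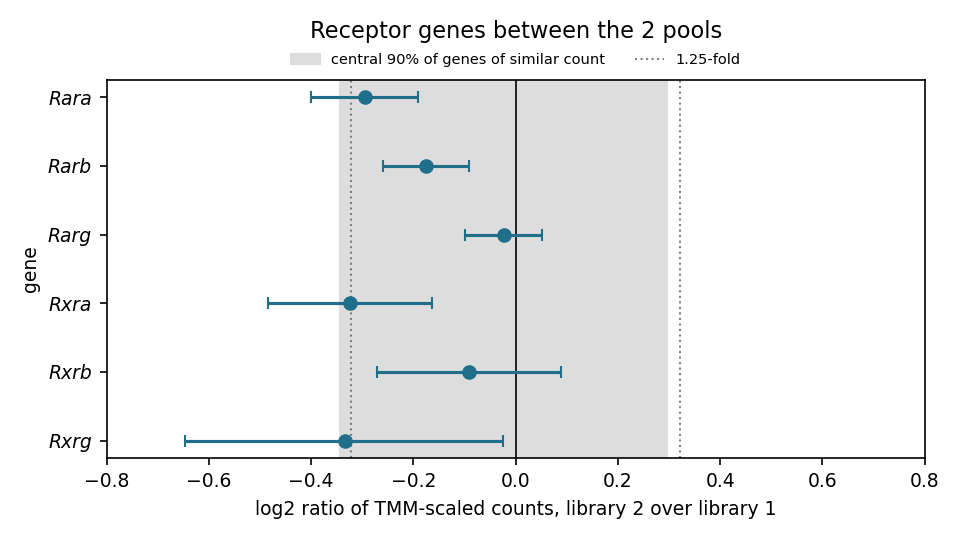
Log2 ratio of TMM-scaled counts of library 2 over library 1 for the 6 receptor genes, with exact 95% intervals for counting error. The grey band is the central 90% of genes of similar count and dotted lines mark a difference of 25%; all 6 points lie left of 0 and inside the band.

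Markers of other tissues moved between the same pools. The 7 forebrain and eye markers summed to 224 TPM in library 1 and 74.9 TPM in library 2, and 6 of the 7 were higher in library 1, the lens crystallin gene Cryaa by 8.99-fold. All 6 neuron markers were higher in library 1, with sums of 553 and 466 TPM, as were all 5 endothelium markers, with sums of 145 and 120 TPM, and all 6 surface epithelium markers, with sums of 232 and 201.97 TPM. The 6 skeletal muscle markers were all higher in library 2, with sums of 109 and 176 TPM. The facial mesenchyme markers split evenly, 5 of 10 higher in library 1. None of these marker genes was at 0 in both libraries, and the part of these tissues in the receptor ratios was not tested.

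Among the genes that supply and bind retinoic acid, all 11 were detected, with a median of 32.9 TPM where all protein-coding genes had 3.45 TPM. The cytosolic binding proteins led: Crabp1 at 753 ± 42.0 TPM, Crabp2 at 478 ± 7.01 TPM (SD, n = 2) and Fabp5 at 352 and 351 TPM. Crabp1 thus stood 14.4 ± 0.445-fold above Rarg and Crabp2 9.17 ± 0.363-fold (SD, n = 2). The 3 enzymes that degrade retinoic acid were lower, with Cyp26a1 at 12.8 ± 1.56 TPM, Cyp26b1 at 5.42 ± 0.141 TPM and Cyp26c1 at 2.21 ± 0.368 TPM (SD, n = 2).

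Corepressor and coactivator genes were also detected as RNA. All 9 corepressor genes were detected, with a median of 44.4 TPM, led by Ncor1 at 123 ± 5.92 TPM, Sin3b at 122 ± 6.60 TPM and Hdac3 at 115 ± 11.6 TPM (SD, n = 2). Each of these exceeded every receptor gene. Of 9 coactivator genes listed, 8 were matched and all 8 were detected, with a median of 14.9 TPM, led by Med1 at 64.2 ± 0.0849 TPM, Carm1 at 47.3 ± 1.36 TPM and Crebbp at 25.5 ± 0.205 TPM (SD, n = 2).

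Of the 13 other receptors that pair with RXRs, 5 were detected. Nr1h2, a liver X receptor, reached 49.4 ± 3.86 TPM, the thyroid hormone receptor Thra 15.1 ± 0.375 TPM and the orphan receptor Nr4a2 3.54 ± 1.10 TPM (SD, n = 2). Under 1 TPM in both libraries were Nr1h3 at 0.705 TPM, the vitamin D receptor Vdr at 0.245 TPM, Nr1i3 at 0.185 TPM and Pparg at 0.115 TPM, each as a mean of 2 libraries. Nr1i2 and Nr1h4 had no count, which allows up to 0.0596 and 0.0775 TPM in library 1. The median of the 13 partners was 0.705 TPM, and of these 13 Nr1h2 alone lay above Rara, the lowest of the Rar genes.

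Of 14 textbook retinoic acid-responsive genes, a list that includes Rarb, 12 were detected, with a median of 32.0 TPM. Crabp2 was highest, followed by Meis1, a homeobox gene, at 68.9 ± 0.488 TPM (SD, n = 2). The hindbrain gene Hoxb1 was under 1 TPM in both libraries, at 0.46 ± 0.368 TPM (SD, n = 2). Rarb ranked among the detected members by its level alone, and none of these levels shows a response, since no sample was given or denied retinoic acid.

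The receptors were also placed among 49 nuclear receptor genes, of which 25 were detected. Rarg ranked 2, Rarb 6, Rara 7, Rxrb 10, Rxra 14 and Rxrg 16 by mean TPM. The genes most like each receptor were taken as the 2 nearest in log2(TPM + 1) over the 2 libraries, by Euclidean distance. Nearest to Rarg were Nr2f2 at 54.4 ± 0.247 TPM (distance 0.0961) and Nr1h2 (0.135), to Rarb Nr2f1 at 42.0 ± 0.834 TPM (0.247) and Nr2f6 at 43.7 ± 4.84 TPM (0.257), and to Rara its paralog Rarb (0.677) and Nr2f1 (0.886). In rank, Rara lay between Rarb and Thra.

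The Rxr genes each had neighbours nearer than those of Rara and farther than those of Rarg. Nearest to Rxrb were Nr2c2 at 11.5 ± 1.45 TPM (0.196) and Nr2c1 at 9.88 ± 0.191 TPM (0.219). Nearest to Rxra were the glucocorticoid receptor gene Nr3c1 at 6.92 ± 0.0495 TPM (0.253) and Nr2e1 at 7.70 ± 1.71 TPM (0.296), and nearest to Rxrg were Rora at 5.35 ± 1.58 TPM (0.256) and Nr1d2 at 4.66 ± 0.608 TPM (0.329). The ranges of Rxrb and Nr2c2 overlapped, as did those of Rxra with Nr3c1 and Nr2e1 and of Rxrg with Rora and Nr1d2. Those of Rxrb and Nr2c1 did not.

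**Figure D5:**
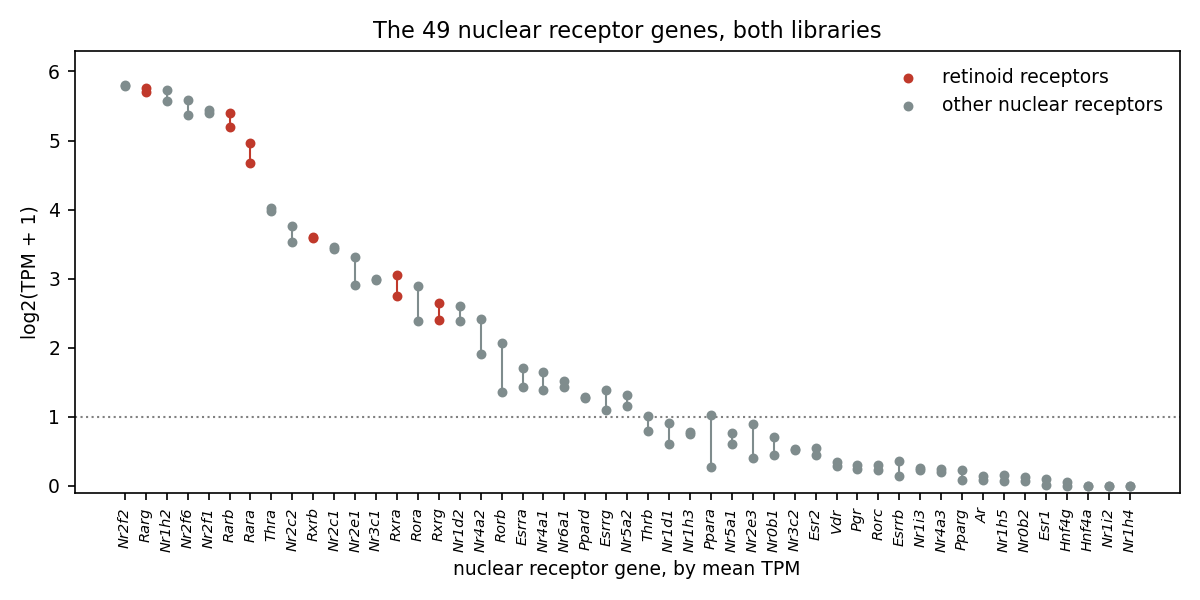
Level of the 49 nuclear receptor genes as log2(TPM + 1), ordered by mean TPM, with 1 point per library joined by a line, the retinoid receptors in red and a dotted line at 1 TPM. The 3 Rar genes stand among the 7 highest and the 3 Rxr genes between ranks 10 and 16.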

How the data were processed

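Total RNA-seq of 2 libraries was used as deposited. The authors quantified each library with GENCODE M4 on mm10, according to notes deposited beside the tables. Columns are named as RSEM names them, and the aligner, the versions and strandedness are not given in the sources used here. Expected counts were estimated by the authors per gene and transcript, per the file headers, with no normalization. TPM was computed by the authors over all entries of a file, spike-ins included (15.4% and 15.8% of TPM), per the file headers. The isoform percentage is the deposited share of a gene's TPM, in percent. Posterior mean counts with their SD are also the authors'.

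Names, types, positions and coding starts came from GENCODE M21, matched on the identifier without its version: 42462 of 43346 genes matched, and all 34 receptor transcripts, 29 of them with the same length. Promoter windows came from RefSeq (GRCm38.p6), with 13 windows over the 6 genes. Counts were scaled by TMM (edgeR 4.0.16, R 4.3.3). Ratios carry exact 95% Clopper-Pearson intervals of the split of the counts, which cover counting error only, since reads carry no molecular identifiers. The ratio calculation was tested on simulated data. Transcript starts within 500 bases were joined into groups. No p-value was computed.

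The receptors and gene lists were chosen with earlier results of these data known. Named were all 6 genes, transcripts of at least 10% in either library and those of alternative promoter groups of at least 5%, and from each pathway list the 3 genes of highest mean TPM with those under 1 TPM in both libraries. Some genes that this rule names are not reported here. For each receptor the 2 nearest of 49 nuclear receptors in level were named too. Other genes and transcripts named (Rarg-204, Rara-201, Rxra-202 and Rxra-203, Top2b and Cryaa, and Aldh1a1, Aldh1a2, Aldh1a3, Stra6, Rdh10 and Dhrs3) were chosen after their values were seen. Alternatives covered other scalings (DESeq2 1.42.0 size factors, total and spike-in counts), posterior estimates, coding transcripts alone, filters, grouping distances and leaving out each library.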

Additional observations from a re-analysis of the deposited data

How the results depend on the processing

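The ratio of summed Rar to Rxr TPM, 5.27, was 5.18 with posterior mean TPM and 5.48 with protein-coding transcripts alone, both further from it than its SD, and it ranged from 5.24 to 5.31 when leaving out a library. The number of receptor genes detected (6) and with the same leading transcript (5) did not vary over the alternatives run. Genes differing by at least 25% numbered 2, and 3 when scaled by total gene counts or spike-in counts, where Rara passed. Genes with at least 2 groups of starts numbered 3, and 4 with starts joined within 100 bases or, in an alternative chosen after seeing the data, by start codon. In both, Rxrb was the gene added. Relative to TMM, spike-in scaling moved the median of all genes by -0.06 on the log2 scale. TPM over annotated genes alone raised all 6 levels by 1.18-fold. No paired analysis was possible because there is only 1 group. Depth limits Rxrg most, with 197 and 156 counts over 4 transcripts.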

Other observations

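Among the genes of retinoic acid supply, 8 of 11 were higher in library 1, where 49.2% of the 14790 genes with at least 50 counts were. For some of the 8 the exact 95% interval of library 1 over library 2 held 1, as for Aldh1a2 (0.983 to 1.14) and Aldh1a3 (0.948 to 1.09). Aldh1a1, a retinaldehyde dehydrogenase known from the dorsal retina, stood apart. It measured 49.97 TPM in library 1 and 17.7 TPM in library 2, a ratio of 2.78 (exact 95% interval 2.55 to 3.03), and was named after its values were seen. The other retinaldehyde dehydrogenases measured 30.6 ± 1.70 TPM for Aldh1a2 and 30.2 ± 1.66 TPM for Aldh1a3 (SD, n = 2). The forebrain and eye markers, with sums of 224 and 74.9 TPM, moved in the same direction as Aldh1a1, and their part in it was not tested. Stra6, a membrane receptor for retinol uptake, measured 31.2 ± 3.73 TPM, Rdh10, which makes retinaldehyde from retinol, 13.9 ± 0.106 TPM, and Dhrs3, which acts in the reverse direction, 32.9 ± 2.23 TPM (SD, n = 2).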
